A study of Mus musculus with 36 samples.

Results

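The Hedgehog genes described here are the 3 ligands Dhh, Shh and Ihh, the receptor Ptch1, the signal transducer Smo, the transcription factors Gli1, Gli2 and Gli3, and the ligand-binding inhibitor Hhip. They were taken by gene symbol from the tables of read counts per gene at E11.5 and E12.5 (E, embryonic day), and all 9 were found among the 21699 genes of each table. At each stage 8 of the 9 reached the level needed for testing (at least 1 CPM, the usual unit of counts scaled to the size of the library, in at least 2 of the 12 libraries), and Ihh did not. The question addressed is whether the target genes of the pathway followed Dhh or Shh across the 4 genotypes of each stage.

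Bulk RNA-seq was performed on mouse XX control, XY control, XX knockout (KO) and XY KO embryos, with 3 libraries per genotype at E11.5 and 3 at E12.5. KO embryos carried Tg(CAG-cre)1Nagy and were homozygous for the deleted allele (miR-17~92 del/del), so that a Cre recombinase driven by the ubiquitous CAG promoter had removed the microRNA cluster throughout the embryo and not in the gonad alone, and the controls are labelled WT. The floxed allele came from a mixed C57BL/6 and 129S4/SvJae background, and each library pooled 2 pairs of gonads. The gonad was taken with the mesonephros, the adjoining embryonic kidney, at the first stage and alone, with another library kit, at the second, so values were compared within a stage. In whole tissue, fewer cells of a type and less RNA per cell cannot be told apart.

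Hedgehog ligands are secreted proteins that bind Ptch1, a receptor which holds Smo inactive until a ligand is bound. Active Smo then lets Gli2 and Gli3, which also exist as repressor forms, switch on target genes. Gli1, Ptch1 and Hhip are themselves targets in many tissues, so their transcripts are widely used as readouts of signalling, and Ptch1 and Hhip in turn restrain the ligand. In the fetal testis Dhh is made by Sertoli cells, the supporting cells of the testis cords, and acts on interstitial cells from which the steroid-producing fetal Leydig cells arise. Shh and Ihh are better known from the limb, neural tube, gut and skeleton.

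The deleted cluster encodes 6 mature guide strands in 4 seed families, and their sequences are shown because the seed, bases 2 to 8 in capitals, is the part that pairs with a transcript. The sequences and positions are those of RefSeq on GRCm38.p6, where the strands lie on the plus strand of chromosome 14 between 115043684 and 115044496. Strands of a family share the seed and are listed together.
mmu-miR-17-5p: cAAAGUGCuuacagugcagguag
mmu-miR-20a-5p: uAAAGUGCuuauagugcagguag
mmu-miR-18a-5p: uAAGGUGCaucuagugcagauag
mmu-miR-19a-3p: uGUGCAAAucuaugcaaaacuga
mmu-miR-19b-3p: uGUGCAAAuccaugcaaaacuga
mmu-miR-92a-3p: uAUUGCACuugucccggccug

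The 3′ UTRs of 3 of the 9 Hedgehog genes hold a match to one of these seeds, the letters searched being GCACTTT for the miR-17 family, GCACCTT for miR-18, TTTGCAC for miR-19 and GTGCAAT for miR-92, read on the transcript strand only. A match to any family was found in 28.8% of 21037 genes with a 3′ UTR. Hhip holds 3 matches, 2 for miR-19 and 1 for miR-92, in a 3′ UTR of 6480 bases, whereas Dhh and Smo hold 1 match each, both for miR-18. No match was found in Shh, Ihh, Ptch1, Gli1, Gli2 or Gli3, whose 3′ UTRs run from 165 bases in Gli1 to 3245 in Gli3. The 5 sites are shown with the match in capitals, 5′ to 3′ on the transcript strand, since Hhip and Smo are among the genes described below in KO gonads. A match is a description of the letters and does not show that the microRNA acts there. Coordinates are on GRCm38.
Hhip miR-19 site, chr8:79970582-79970611, minus strand: gcttgcataatTTTGCACaatttagattca
Hhip miR-19 site, chr8:79966484-79966513, minus strand: accttcttgagTTTGCACtaatctggctca
Hhip miR-92 site, chr8:79971903-79971932, minus strand: gaaatgttcttGTGCAATgtagtggaagta
Smo miR-18 site, chr6:29760902-29760931, plus strand: cttcctggttaGCACCTTaaaactgcagtg
Dhh miR-18 site, chr15:98891397-98891426, minus strand: ttggccgccgaGCACCTTccaaccgcagca

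The promoters, read from RefSeq for 250 bases before to 50 after the gene start, were searched on both strands for the GLI binding motif TGGGTGGTC. None of the 7 promoters present for these genes held it, and 0.253% of 32851 mouse promoters did. The promoters of Shh and of Gli1, a readout, were not present and so were not searched. A window without these letters says nothing about binding of the factor.

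Total counts ranged from 11877379 to 44155275 per library. Xist and Ddx3y, a Y-linked gene, put every library in its labelled sex. The deposited row of Mir17hg, the host transcript of the cluster, was at 66.7 to 154 CPM in KO libraries and at 13.4 to 44.6 CPM in controls, and this row also counts exons outside the deleted part, so it does not check the deletion. At E12.5, XX KO replicate 2 stood apart from the other XX KO libraries in depth, with 44155275 counts, and in Xist, with 2990 CPM against 1340 and 1430, and results that change without it are given with their value.

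In testis-forming controls at E12.5 the ligand and the readouts were high together. Between XX and XY control gonads 6 of the 8 tested genes were called, all lower in XX, at a false discovery rate (FDR) under 0.05 in edgeR's quasi-likelihood test. They were Dhh, Shh, Ptch1, Gli1, Gli2 and Hhip, and 23.8% of all 14348 genes tested were called in this comparison. Shh reached the level needed for testing only in the XY controls, so it had to differ, its calls against them support nothing, and the other 5 stand without it. The same 6 were called lower in XY KO than in XY control gonads, where 20.6% of all genes were called, and both comparisons rest on the same XY control libraries. The median log2 fold change of the 8 genes was -3.42 in the first comparison and -2.15 in the second, against 0.01 and -0.01 over all genes, with Shh among the 8. Between XX KO and XX control gonads Gli1 and Gli2 were called, both higher, with 5.26% of all genes called. With the 2 KO genotypes set against each other only Dhh was called, higher in XY KO, with 0.153% of all genes called. That share rests on XX KO replicate 2, since 22 genes were called with it and 1828 without it, where 3 of the 8 Hedgehog genes (Dhh, Ptch1 and Gli3) were called. The interaction of sex and deletion, which tests whether the deletion changed a gene differently in XY and XX, called these 6 genes again, Shh with the same limit, and 12.9% of all genes.

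At E11.5, with the mesonephros included, fewer of the genes differed and no readout was called lower with Dhh in XY KO tissue. Dhh alone was called between XX and XY controls, lower in XX, with 0.886% of all 14217 genes called. In XY KO against XY control tissue Dhh was lower and Shh and Hhip were higher, 3 of 8 genes, with 12.7% of all genes called. In XX KO against XX control tissue Gli2 and Hhip were higher, with 3.27% of all genes called. No Hedgehog gene was called between the KO genotypes, where 0.0844% of all genes were, nor by the interaction, where 0.0352% were, and DESeq2's Wald test called none of the 8 in either. That test gave Dhh no FDR in the interaction, so for Dhh it is not a negative result there. At an unadjusted p under 0.05 in edgeR's test, Shh and Gli2 passed between the KO genotypes, beside 2291 of all 14217 genes. Dhh, Gli1 and Gli2 passed in the interaction, beside 1825 of all genes. The median of the 8 genes was 0.07 and -0.32 on the log2 scale in these 2 comparisons.

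**Figure D1:**
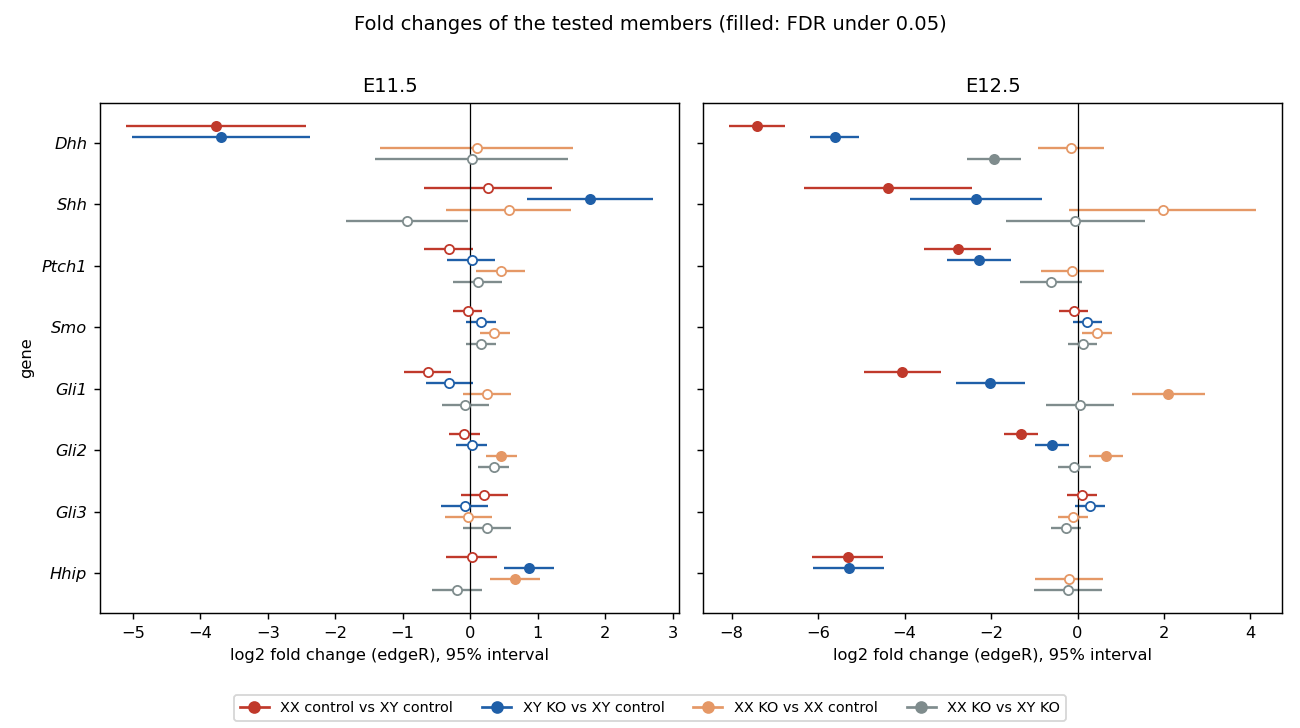
Log2 fold changes with 95% intervals (horizontal axis) for the 8 tested genes (vertical axis) in 4 comparisons at E11.5 (left) and E12.5 (right), with filled points for an FDR under 0.05. At E12.5 the points of Dhh, Shh, Ptch1, Gli1, Gli2 and Hhip lie left of 0 for XX control and XY KO against XY control, and at E11.5 of these only Dhh does so with a filled point.

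Dhh, on the minus strand of chromosome 15 from 98891152 to 98898540 (GRCm38), is the ligand of the fetal testis. At E11.5 it was at 6.06, 17.7 and 31.3 CPM in the 3 XY control libraries. It was at 0.999 to 1.68 CPM in XX controls, 0.51 to 2.08 CPM in XX KO and 1.18 to 1.69 CPM in XY KO tissue. All 3 XY control libraries were above all 9 others, and they also differed widely among themselves, with a mean of 18.4 ± 12.6 CPM (SD, n = 3). Dhh was 13.7-fold lower in XX than in XY controls (log2 fold change -3.77, SE 0.58, FDR 0.0083) and 13.0-fold lower in XY KO than in XY control tissue (log2 fold change -3.70, SE 0.57, FDR 0.00247). Without XY control replicate 3, the highest, these were -3.16 and -3.08, both still called, and without XX control replicate 2 or 3 the difference between the controls had an FDR of 0.0567 or 0.0668. XX KO and XX control tissue did not differ in Dhh beyond the spread (log2 fold change 0.10, 95% interval -1.34 to 1.53).

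At E12.5 Dhh was at 172, 195 and 144 CPM in XY control gonads, and it had the largest fold change of the 8 tested genes between XX and XY controls. It was at 0.757 to 1.31 CPM in XX controls, at 0.617 to 1.13 CPM in XX KO, and at 2.40, 4.72 and 3.39 CPM in XY KO gonads. The order of the 4 genotypes was thus XY control, XY KO and then the 2 XX genotypes, whose libraries overlapped. Dhh was 170-fold lower in XX than in XY controls (log2 fold change -7.41, SE 0.28, FDR 3.47e-10) and 49.2-fold lower in XY KO than in XY control gonads (log2 fold change -5.62, SE 0.25, FDR 3.41e-09). XY KO gonads had 3.82-fold more Dhh than XX KO gonads, without overlap of libraries (log2 fold change of XX KO against XY KO -1.93, SE 0.27, FDR 0.00512). In a fit to these 6 libraries alone the last difference was -1.96 with an FDR of 0.225.

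Shh, on the minus strand of chromosome 5 from 28456815 to 28467256, is the ligand of limb, neural tube and gut. At E11.5 it was at 2.42 to 3.39 CPM in XY controls, 2.63 to 3.83 CPM in XX controls, 4.10, 6.50 and 4.66 CPM in XX KO and 4.37, 17.6 and 7.48 CPM in XY KO tissue. Every KO library was above every control library of either sex, and XY KO replicate 2 was the highest of all. Shh was 3.42-fold higher in XY KO than in XY control tissue (log2 fold change 1.77, SE 0.40, FDR 0.0136). Without XY KO replicate 2 this was 1.05 with an FDR of 0.0456, and without XY control replicate 1 it was 1.74 with an FDR of 0.0532. In XX KO against XX control tissue the log2 fold change was 0.57 (95% interval -0.36 to 1.5) and was not called, and the difference between the sexes was not called either (interaction 1.2, FDR 0.395).

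At E12.5 Shh was close to the limit of detection outside XY controls, and it passed the filter on low counts only through the XY controls. It had 54, 51 and 29 reads in the XY control libraries, which is 2.35, 2.21 and 2.52 CPM. In XX controls it had 0, 5 and 1 reads, in XX KO 4, 39 and 6, and in XY KO 2, 5 and 28. The lowest XY control library, at 2.21 CPM, was above the highest of the other 9, at 0.883 CPM, which was XX KO replicate 2. Shh was lower in XX than in XY controls (log2 fold change -4.38, SE 0.84, FDR 0.00134) and in XY KO than in XY control gonads (log2 fold change -2.35, SE 0.66, FDR 0.0199), the direction opposite to that in XY KO tissue at E11.5. The first value moved to -3.79 without XX control replicate 1 and to -6.13 without replicate 2. The second moved to -3.39 without XY KO replicate 3, and it had an FDR of 0.0504, 0.0642 and 0.0701 without XY control replicate 1, XY KO replicate 1 and XY KO replicate 2.

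Markers of tissues outside the gonad that make Shh were read beside these values. Of the gut endoderm markers, Foxa1 and Foxa2 were under the filter at both stages and the summed level of the 7 markers at E11.5 was 97.6 to 123 CPM in XY KO and 97.1 to 139 CPM in XY control tissue, with no marker called. Epcam and Cldn6 carried this sum, while Foxa1 was at 0.481 ± 0.337 CPM in XY KO and 0.0525 ± 0.0561 CPM in XY control tissue and Foxa2 at 0.391 ± 0.373 and 0.104 ± 0.121 CPM (SD, n = 3). Of 5 gut markers tested at E12.5, Cdx2, Cdx1 and Cldn6 were higher in XX than in XY controls (median log2 fold change of the 5, 1.5). In XY KO against XY control gonads Cdx2, Cdx1, Vil1 and Cldn6 were higher and Epcam lower (median 1.81). Vil1 was also higher in XX KO than in XX control gonads. Of 7 markers of neural tube, floor plate and notochord, Nkx6-1, Olig2, Foxa2 and Noto were under the filter, and the sum at E11.5 was 13.1 to 18.3 CPM in XY KO and 16.3 to 24.3 CPM in XY control tissue, with no marker called. Sox2 carried that sum, while T, a notochord marker, was at 0.482 to 4.05 CPM in XY KO and 0.664 to 1.33 CPM in XY control tissue (log2 fold change 0.93, FDR 0.349). At E12.5 the sum was 59.1 to 95.7 CPM in XX controls and 37.8 to 58.3 CPM in XY controls, again mostly Sox2, whereas T was at 0.863 ± 0.391 and 1.82 ± 0.587 CPM and Noto at 0.159 ± 0.187 and 0.318 ± 0.132 CPM in these 2 genotypes (SD, n = 3). The part of these tissues in the Shh differences was not tested.

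Ihh, on the minus strand of chromosome 1 from 74945315 to 74951672, the ligand of bone and gut, was not tested. It was at 0.185 to 0.67 CPM over all E11.5 libraries and at 0 to 0.908 CPM over the E12.5 libraries. At E12.5 it had 11, 20 and 25 reads in XX KO gonads, 1, 1 and 2 in XX controls, 9, 3 and 0 in XY controls and 0, 5 and 10 in XY KO gonads. The XX KO libraries were above those of XX control and XY KO gonads and overlapped with XY controls.

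**Figure D2:**
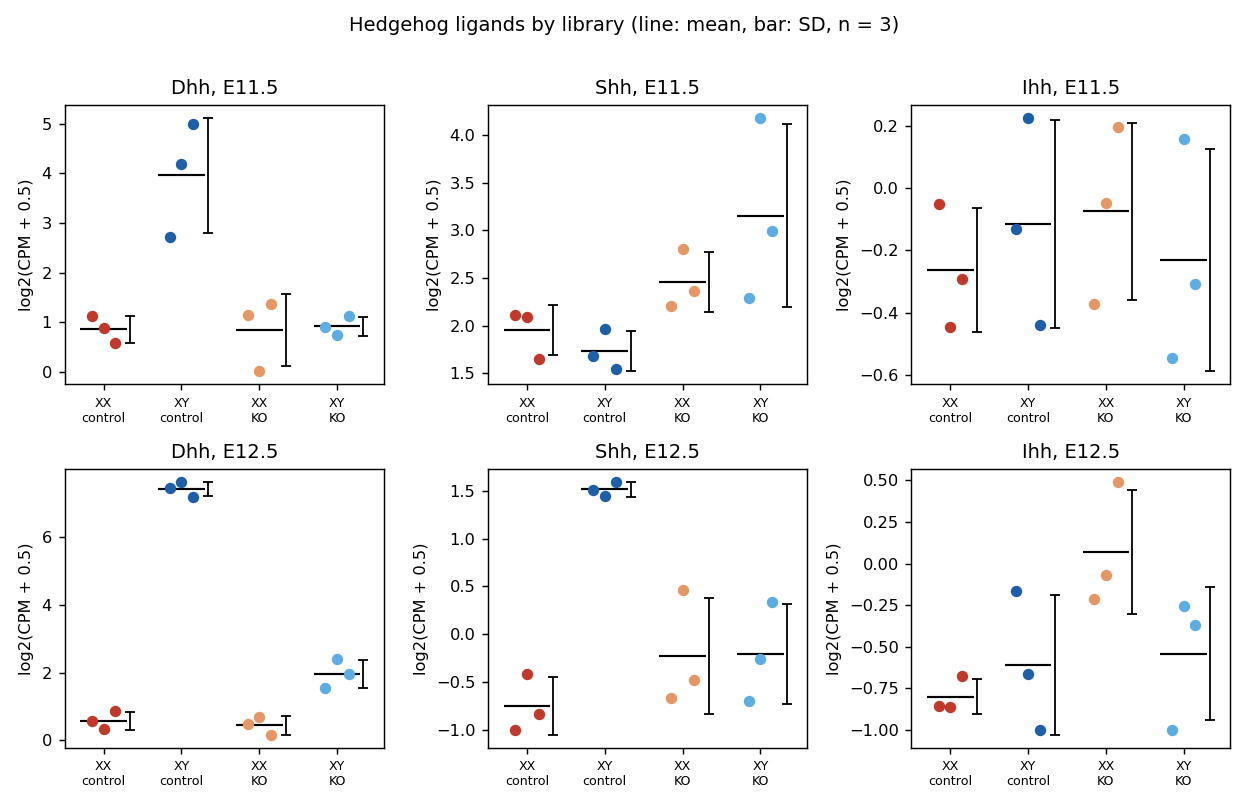
Levels of Dhh, Shh and Ihh in log2(CPM + 0.5) (vertical axis) for each library of the 4 genotypes (horizontal axis) at E11.5 (top) and E12.5 (bottom), with the mean as a line and the SD as a bar. Dhh is highest in the 3 XY control libraries at both stages, and at E11.5 Shh is highest in XY KO replicate 2, at 17.6 CPM.

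Of the readouts, Ptch1, the receptor and a target of the pathway, lies on the minus strand of chromosome 13 from 63508328 to 63573598. At E11.5 it was at 58.2, 76.3 and 86.6 CPM in XY controls, 62.3, 47.3 and 67.7 CPM in XX controls, 88.4, 85.8 and 67 CPM in XX KO and 68.5, 74.9 and 80.2 CPM in XY KO tissue. All 4 genotypes overlapped with at least one other. XY KO and XY control tissue did not differ in Ptch1 beyond the spread (log2 fold change 0.02, 95% interval -0.34 to 0.37), with Dhh 13.0-fold lower. At E12.5 Ptch1 was at 270, 232 and 197 CPM in XY controls and at 18 to 53.4 CPM in the other 9 libraries. It was 6.84-fold lower in XX than in XY controls (log2 fold change -2.77, SE 0.33, FDR 2.4e-05) and 4.86-fold lower in XY KO than in XY control gonads (log2 fold change -2.28, SE 0.32, FDR 0.000144). XX KO gonads, at 18, 50 and 26 CPM, and XX controls, at 35.5, 45.1 and 21.4 CPM, overlapped. Between the KO genotypes Ptch1 was not called (log2 fold change -0.61, 95% interval -1.33 to 0.11), and without XX KO replicate 2 it was lower in XX KO (-1.13, FDR 0.0234).

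Gli1, a transcription factor whose own gene is a target of the pathway, lies on the minus strand of chromosome 10 from 127329882 to 127341974. At E11.5 it was at 103, 80.8 and 121 CPM in XY controls and at 70.9, 64.5 and 61.2 CPM in XX controls. These 2 genotypes did not overlap, but the difference missed the threshold (log2 fold change -0.63, SE 0.15, FDR 0.0707). It was called in the DESeq2 Wald test (FDR 0.0082), without XX KO replicate 3 (FDR 0.0415) and without XY control replicate 2 (-0.77, FDR 0.00327). XX KO tissue, at 62.6 to 89.8 CPM, and XY KO tissue, at 70.3 to 89.8 CPM, overlapped with each other. In XY KO against XY control tissue the log2 fold change was -0.31 (95% interval -0.65 to 0.04, FDR 0.196), and without XY control replicate 2 it was -0.45 with an FDR of 0.038.

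At E12.5 Gli1 was at 133, 108 and 105 CPM in XY controls and at 7.84, 5.90 and 7.13 CPM in XX controls. The KO gonads of both sexes lay between, at 15, 35.7 and 38.7 CPM in XX KO and at 16.6, 23.9 and 44.6 CPM in XY KO, and did not overlap with either control. Gli1 was 16.6-fold lower in XX than in XY controls (log2 fold change -4.06, SE 0.39, FDR 2.93e-06) and 4.04-fold lower in XY KO than in XY control gonads (log2 fold change -2.02, SE 0.35, FDR 0.000742). It was 4.29-fold higher in XX KO than in XX control gonads (log2 fold change 2.1, SE 0.37, FDR 0.00913), where Dhh had a log2 fold change of -0.15 (95% interval -0.91 to 0.61). The last call was lost without XX control replicate 1 (FDR 0.0513), XX control replicate 2 (FDR 0.0586) or XX KO replicate 3 (FDR 0.0578), each with a log2 fold change of at least 1.87. Between the KO genotypes Gli1 did not differ beyond the spread (0.06, 95% interval -0.72 to 0.84), although Dhh was higher in XY KO.

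Hhip, a membrane protein that binds and sequesters the ligands, lies on the minus strand of chromosome 8 from 79965851 to 80058006. At E11.5 it was at 9.51, 15.6 and 14.4 CPM in XY controls and 12.7, 15.1 and 12.1 CPM in XX controls, and at 20.6, 20.8 and 21.8 CPM in XX KO and 22.4, 26.6 and 23.6 CPM in XY KO tissue. Every KO library was above every control library, as for Shh. Hhip was 1.83-fold higher in XY KO than in XY control tissue (log2 fold change 0.87, SE 0.16, FDR 0.00339), and this call was kept in all 19 alternatives, with an FDR of at most 0.0205. It was 1.58-fold higher in XX KO than in XX control tissue (log2 fold change 0.66, SE 0.16, FDR 0.0363), a call that was lost without any of the 3 XX control or 3 XX KO libraries or without XY KO replicate 3, with FDRs of 0.0529 to 0.142, and with library size as the only scaling (FDR 0.0534). The log2 fold change over these 19 alternatives was 0.59 to 0.76. The increase did not differ between the sexes beyond the spread (interaction 0.21, 95% interval -0.31 to 0.74). Hhip is also the gene with 3 seed matches above, and the part of these in the increase was not tested.

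At E12.5 Hhip was at 152, 126 and 180 CPM in XY controls and at 2.07 to 5.46 CPM in the other 9 libraries, which overlapped among the 3 genotypes. It was 39.8-fold lower in XX than in XY controls (log2 fold change -5.32, SE 0.36, FDR 8.89e-08) and 39.1-fold lower in XY KO than in XY control gonads (log2 fold change -5.29, SE 0.36, FDR 1.52e-07). The means were 3.77 ± 1.34 CPM in XY KO and 3.82 ± 0.759 CPM in XX control gonads (SD, n = 3). The higher level of E11.5 KO tissue was thus not seen in E12.5 KO gonads, where XX KO against XX control gave -0.20 (95% interval -0.99 to 0.60). The tissue and library kit differ between the stages and cannot be told apart from the day.

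**Figure D3:**
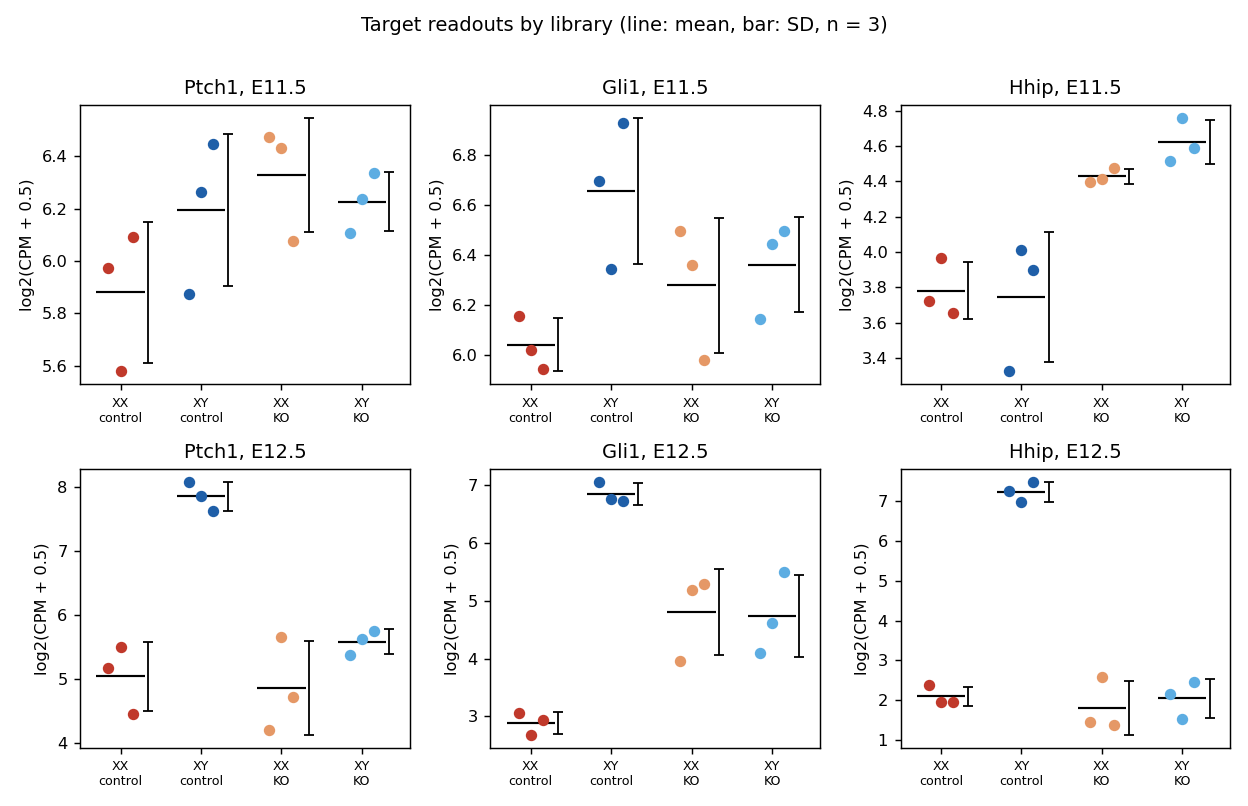
Levels of Ptch1, Gli1 and Hhip in log2(CPM + 0.5) (vertical axis) for each library of the 4 genotypes (horizontal axis) at E11.5 (top) and E12.5 (bottom), with the mean as a line and the SD as a bar. At E11.5 all 6 KO libraries lie above the 6 controls for Hhip, and at E12.5 the XY controls lie above the rest for all 3 genes, with the KO libraries of both sexes between the controls for Gli1 only.

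The 3 readouts kept different proportions to one another. In XY controls at E12.5 there were 0.545 to 0.911 reads of Hhip per read of Ptch1, and 0.0481 to 0.158 in the other 9 libraries. For Gli1 the reads per read of Ptch1 were 0.468 to 0.535 in XY controls, 0.131 to 0.333 in XX controls, 0.714 to 1.49 in XX KO and 0.405 to 0.835 in XY KO gonads. Thus Hhip was low relative to Ptch1 in every genotype but XY controls, while Gli1 was higher relative to Ptch1 in XX KO than in control gonads of either sex. These ratios are a description, and the differences between genes were not tested.

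Gli2, the main activator among the transcription factors of the pathway, lies on the minus strand of chromosome 1 from 118834132 to 119053619. At E11.5 it was at 98.0, 92.7 and 86.8 CPM in XX KO tissue and at 60.9 to 80.5 CPM in the other 9 libraries, and XX KO exceeded XX control tissue 1.38-fold (log2 fold change 0.46, SE 0.10, FDR 0.0214). This call was lost without XX control replicate 1 or 2 or XX KO replicate 1 or 2, with FDRs of 0.0553 to 0.131. At E12.5 Gli2 was at 123, 100 and 98.5 CPM in XY controls, 42.0, 40.6 and 47.2 CPM in XX controls, 48.5, 73.9 and 81.3 CPM in XX KO and 64.5, 73.0 and 77.2 CPM in XY KO gonads, so that the KO gonads lay between the controls as for Gli1. It was 2.48-fold lower in XX than in XY controls (log2 fold change -1.31, SE 0.17, FDR 5.1e-05). The fall in XY KO was 1.5-fold (log2 fold change -0.59, SE 0.17, FDR 0.0230), and it was lost without XY control replicate 1, XY KO replicate 1 or XY KO replicate 2 (FDRs 0.0616 to 0.0955). The rise in XX KO was 1.57-fold (log2 fold change 0.65, SE 0.17, FDR 0.0413). It was lost in 6 of the 12 fits that left out a library (XX control replicate 1 or 2, XX KO replicate 2 or 3, XY control replicate 2 or XY KO replicate 2, FDRs 0.0545 to 0.19) and in a fit to the 6 XX libraries alone (FDR 0.105).

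Smo and Gli3 were called in no comparison. Smo, on the plus strand of chromosome 6 from 29735503 to 29761365, which carries the signal across the membrane, was at 287 to 429 CPM at E11.5 and at 215 to 396 CPM at E12.5. At both stages the XX KO libraries were all above the XX controls, 385 to 429 against 292 to 325 CPM at E11.5 and 291, 319 and 396 against 263, 215 and 259 CPM at E12.5. The log2 fold changes were 0.36 (SE 0.10, FDR 0.0502) and 0.45 (SE 0.15, FDR 0.0862), and neither passed the threshold. The first was called in the fit to the 6 XX libraries (FDR 0.0355), in the DESeq2 Wald test (FDR 0.00549) and without XY control replicate 1 or 2 (FDRs 0.0327 and 0.0272), and the second in the DESeq2 Wald test (FDR 0.0437). Between XY KO and XY control libraries Smo gave 0.16 (95% interval -0.06 to 0.38) at E11.5 and 0.23 (95% interval -0.10 to 0.57) at E12.5.

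Gli3, on the plus strand of chromosome 13 from 15463235 to 15730026, acts mainly as a repressor without ligand. It was at 78.0 to 123 CPM at E11.5 and 87.5 to 138 CPM at E12.5. At E12.5 it was at 124 to 136 CPM in XY KO and 102 to 112 CPM in XY control gonads, without overlap (log2 fold change 0.28, 95% interval -0.07 to 0.63, FDR 0.236). Without XY control replicate 2 at E11.5 it was called higher in XX than in XY controls (0.41, FDR 0.0424). Without XX KO replicate 2 at E12.5 it was called lower in XX KO against XY KO gonads (-0.49, FDR 0.028). Its interaction was also called in that fit (0.60, FDR 0.0252).

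**Figure D4:**
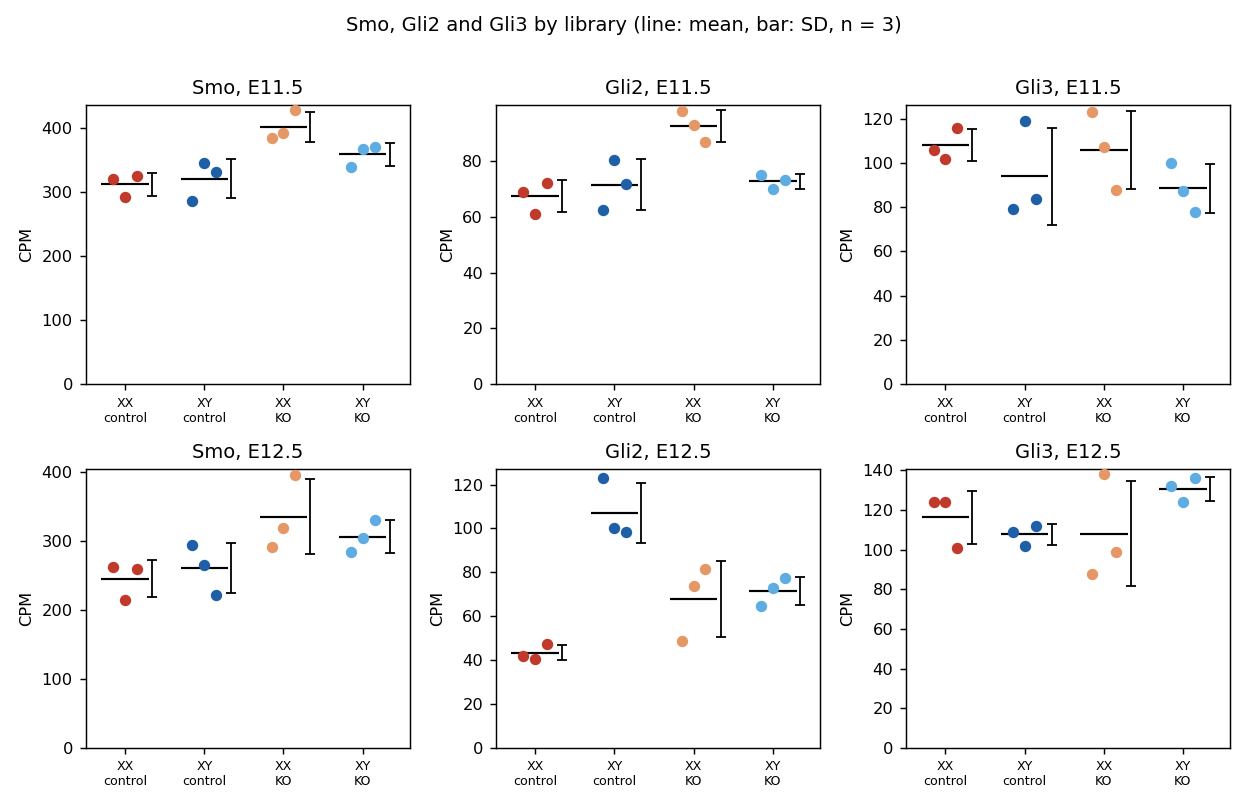
Levels of Smo, Gli2 and Gli3 in CPM (vertical axis, from 0) for each library of the 4 genotypes (horizontal axis) at E11.5 (top) and E12.5 (bottom), with the mean as a line and the SD as a bar. At E12.5 Gli2 is highest in XY controls and lowest in XX controls, while Smo and Gli3 stay within 215 to 396 and 87.5 to 138 CPM.

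Levels of different genes were compared per kilobase of merged exon. On this scale Smo was the highest of the 9 in every genotype, with means of 43.7 to 71.6 reads per kilobase of exon on the CPM scale (RPKM). In XY controls at E12.5 Dhh was second, at 38.8 ± 5.83 RPKM, followed by Gli1 at 23.2 ± 3.08, Hhip at 16.8 ± 2.94, Ptch1 at 16.4 ± 2.55, Gli2 at 15.6 ± 2.01 and Gli3 at 11.3 ± 0.535 RPKM (SD, n = 3), of which Hhip, Ptch1 and Gli2 do not differ beyond their spread. In the other genotypes at E12.5 Gli3, at means of 11.3 to 13.6 RPKM, was second by its mean, within the spread of Gli2 in XX KO, and Dhh was at 0.2 to 0.796 RPKM. At E11.5 Shh, at 3.45 ± 2.43 RPKM in XY KO tissue, exceeded Dhh, at 0.321 ± 0.0589 RPKM, in the same libraries, whereas in XY controls Dhh, at 4.18 ± 2.87 RPKM, exceeded Shh, at 0.997 ± 0.174 RPKM.

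Whether the readouts followed a ligand from library to library was tested in 12 relations, 3 readouts by 2 ligands at each stage, on log2(CPM + 0.5). Where the libraries fell into separate clusters of the ligand, the relation was computed in the larger cluster. At E12.5 this left out the 3 XY controls for both ligands, so the high level of both ligands with all 3 readouts in XY controls stands as a difference between genotypes and not as a correlation. There Shh, at 2.21 to 2.52 CPM against at most 0.883 CPM in the other libraries, was highest in the same libraries as Dhh. Among the 9 other E12.5 libraries no relation of a readout to Dhh passed the correction, with Pearson's r of 0.54 for Ptch1, 0.35 for Gli1 and 0.14 for Hhip (exact permutation p, two-sided and adjusted over the 12 relations, 0.316, 0.521 and 0.718) and Spearman's rho of 0.52, 0.28 and 0.37 (adjusted exact permutation p 0.388, 0.63 and 0.63). For Shh in these 9 libraries r was 0.63 for Ptch1, 0.72 for Gli1 and 0.39 for Hhip (adjusted exact permutation p 0.2, 0.142 and 0.505; unadjusted 0.0665, 0.029 and 0.295), with rho of 0.77, 0.60 and 0.28 (adjusted exact permutation p 0.128, 0.345 and 0.63), from 0 to 39 reads of Shh per library. Without XX KO replicate 2 and XY KO replicate 3, the libraries farthest from the median of Shh, these r were 0.42, 0.48 and -0.67, weaker for Ptch1 and Gli1 and of the opposite sign for Hhip.

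At E11.5 the relation of Hhip to Shh was the one that passed the correction. Over the 11 libraries other than XY KO replicate 2, r was 0.79 (adjusted permutation p = 0.0401) and rho was 0.85 (adjusted permutation p = 0.0196), and r was 0.77 without XY KO replicate 3 and XX KO replicate 2, the 2 farthest from the median of Shh. Within genotypes, over deviations from the genotype means, r was 0.38 (exact permutation p = 0.111, adjusted 0.589), so the relation was not detectable apart from the difference between KO and control tissue. Ptch1 and Gli1 showed no such relation to Shh, with r of 0.26 and -0.17 (adjusted permutation p 0.576 and 0.666) and rho of 0.18 and -0.12 (adjusted permutation p 0.71 and 0.734). With Dhh, over all 12 libraries, r was 0.19 for Ptch1, 0.61 for Gli1 and -0.39 for Hhip (adjusted permutation p 0.666, 0.142 and 0.432, unadjusted 0.556, 0.0355 and 0.216). For the same relations rho was 0.15, 0.48 and -0.23 (adjusted permutation p 0.71, 0.345 and 0.63). Without XY control replicates 2 and 3, the farthest from the median of Dhh, these r were -0.37, 0.44 and -0.50. Within genotypes no relation of a readout to either ligand passed the correction, the lowest adjusted exact permutation p being 0.426, for Ptch1 with Shh at E12.5 (r = 0.74). The labels give no batch, so no value within batches can be given.

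**Figure D5:**
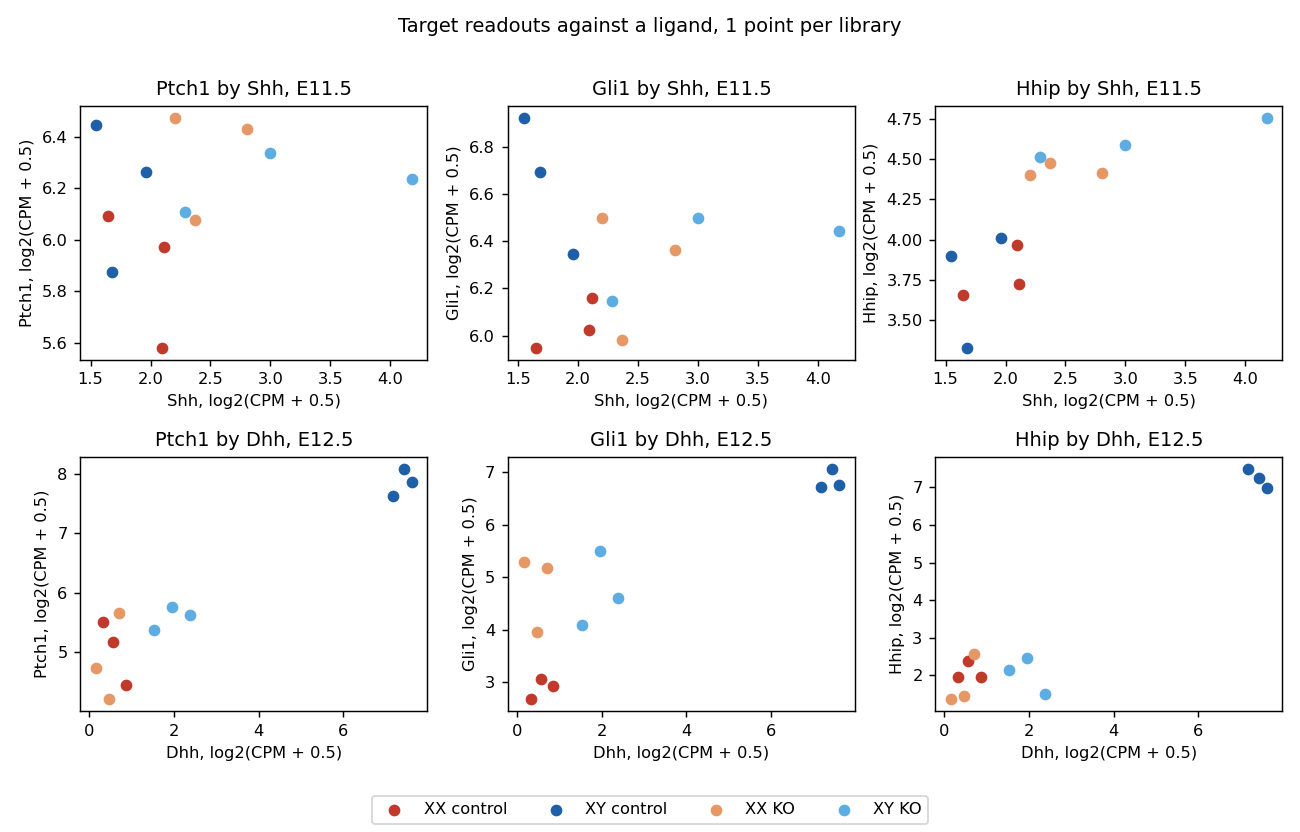
Log2(CPM + 0.5) of Ptch1, Gli1 and Hhip (vertical axes) against Shh at E11.5 (top) and Dhh at E12.5 (bottom; horizontal axes), 1 point per library, coloured by genotype. Hhip rises with Shh as the points pass from control to KO libraries in the top row, and in the bottom row the XY controls lie apart at the upper right of all 3 panels.

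Genes with the most similar profile to each ligand and readout were listed by the root mean square difference of centred log2(CPM + 0.5) over the 12 libraries of a stage, as a description. For Dhh at E12.5 they were Col9a3, Gdnf, Hsd17b3, Ptgds and Cst9, with differences of 0.40 to 0.55 where the SD of Dhh itself was 2.85. At E11.5 they were Tesc, Amh, Kif19a, Ptgds and Cbln4, at 0.49 to 0.57, of which Amh encodes the Sertoli cell hormone that removes the female ducts. Hhip at E12.5 was nearest to Crhr1, Prokr2, Oxtr, Gjb2 and Hsd17b3 (0.46 to 0.55), and Ptch1 to Gprin3, Erbb3, Enc1, Megf10 and Stox2 (0.29 to 0.36). Gli1 at E12.5 was nearest to Enpep, Igfbp7, Col14a1, Fbln2 and Pltp (0.34 to 0.53). The E12.5 lists of Ptch1, Gli1 and Hhip share no gene with one another. Shh was nearest to Fbxo32, Ntf3, Clic5, Sgpp2 and Steap4 at E12.5 (0.24 to 0.28) and to Susd5, Clvs2, Masp1, Efcab1 and Hapln3 at E11.5 (0.35 to 0.45). For Ptch1, Gli1 and Hhip at E11.5 the SD was 0.25 to 0.43 and the nearest 5 genes were at 0.12 to 0.16. By the same measure at E12.5 Ptch1 was 0.52 from Shh and 1.7 from Dhh, Gli1 was 0.74 and 1.83 and Hhip was 1.52 and 0.87. The measure reads the size of the differences between libraries as well as their order. The SD at E12.5 was 0.92 for Shh, 2.85 for Dhh, 1.26 for Ptch1, 1.47 for Gli1 and 2.31 for Hhip. Shh was also close to the limit of detection outside XY controls, which limits its SD. These distances therefore cannot tell which ligand a readout followed.

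Other genes of the pathway were called in both directions. Of 6 genes for ligand release and processing, Scube2, which helps release the ligand from the cell, was lower in XX than in XY control tissue at E11.5 (log2 fold change -1.80, SE 0.34, FDR 0.0163) and in XY KO than in XY control tissue (-2.15, SE 0.35, FDR 0.00158), at 0.48 ± 0.061 CPM in XY KO and 2.17 ± 0.953 CPM in XY control tissue (SD, n = 3). Scube1 was lower in the second of these too (-0.48, FDR 0.00519). No other gene of this list was called in these comparisons. Scube2 reached 1 CPM only in the XY controls, with at most 0.893 CPM in the other E11.5 libraries. It therefore had to differ from them, and its calls support nothing. At E12.5, of 5 tested, Scube3 was higher and Scube1 lower in XX than in XY controls (1.10 and -0.96, FDR 0.00228 and 0.000744), with Disp1 higher (0.43, FDR 0.0417), and Scube3 was higher in XY KO than in XY control gonads (1.34, FDR 0.000607).

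Of 6 co-receptors and ligand-binding proteins, 4 were called at E12.5 in XY KO gonads against their controls. Boc (log2 fold change 0.89, FDR 0.000993), Lrp2 (1.43, FDR 0.00649) and Gas1 (0.92, FDR 0.00924) were higher, and Gpc3, which competes for the ligand, was lower (-0.50, FDR 0.0434). In XX KO against XX control gonads Gas1, Gpc3 and Lrp2 were higher (0.82, 0.82 and 1.39, FDR 0.0474, 0.0145 and 0.0298), 3 of 6. In XX against XY controls Boc was higher and Gpc3 lower (0.59 and -1.21, FDR 0.0150 and 7e-05). At E11.5 only Gpc3 was called, higher in XY KO than in XY control tissue (0.55, FDR 0.0153).

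Intracellular regulators were mostly not called. Of 11 tested, Spop was higher in XY KO tissue at E11.5 (log2 fold change 0.27, FDR 0.0464), Evc, a protein of the cilium, was higher in XY KO and XX KO gonads at E12.5 (0.49 and 0.60, FDR 0.0284 and 0.0315), and Arrb2 was higher in XX than in XY controls at E12.5 (0.43, FDR 0.0476). Of 15 genes known as targets in other tissues, 12 were tested at E12.5, and 5 were higher and 1 lower in XY KO than in XY control gonads, where Dhh and all 3 readouts were lower. Foxd1 (3.52, FDR 0.00568), Ccnd2 (0.62, FDR 0.0071) and Osr2 (-2.17, FDR 0.00863) had the lowest FDRs. Osr2 was the gene that fell, from 25.2 ± 3.62 CPM in XY controls to 5.33 ± 5.36 CPM in XY KO gonads (SD, n = 3), and it was also lower in XX than in XY controls (-2.96, FDR 0.0012), where Foxd1 and Mycn were higher (2.83 and 0.56, FDR 0.0203 and 0.0306). In XX KO against XX control gonads Osr1 and Gas1 were the 2 called (1.43 and 0.82, FDR 0.0341 and 0.0474). At E11.5 Mycn and Snai2 were higher and Osr2 lower in XY KO tissue (0.52, 0.49 and -0.51, FDR 0.00397, 0.00506 and 0.0402), and Mycn was higher in XX KO tissue (0.62, FDR 0.003). The median log2 fold change of this list in XY KO against XY control was 0.42 at E12.5 and 0.25 at E11.5, against -0.01 and -0.03 over all genes. None of the genes on the 4 pathway lists was called between the KO genotypes at either stage.

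Cell markers also differed between the genotypes at E12.5, some in the direction of the Hedgehog genes and some in the opposite one. Of 10 Sertoli cell markers 9 were lower in XX control and in XY KO than in XY control gonads at E12.5, with sums of 2020 to 2740 CPM in XY controls, 420 to 483 CPM in XX controls, 384 to 509 CPM in XX KO and 416 to 472 CPM in XY KO gonads. Of 8 fetal Leydig cell markers all 8 were lower in both, with sums of 1250 to 2240 CPM in XY controls and 248 to 364 CPM in the other libraries. Insl3 among them reached 1 CPM only in XY controls, with at most 0.361 CPM elsewhere, so its calls support nothing. Outside XY controls Gata4, the Sertoli marker not called, made up most of the Sertoli sum, at means of 370 to 404 CPM. Nr5a1 made up most of the Leydig sum there, at means of 219 to 257 CPM. The sums thus understate the median fall. Set against XY controls, the median log2 fold change of the Sertoli list was -4.45 in XX control and -4.08 in XY KO gonads. That of the Leydig list was -4.28 and -4.42, with Insl3 among the 8. Schwann cell precursors and endothelium can also make Dhh. Of 6 Schwann cell precursor markers Erbb3, Sox10 and Cdh19 were lower in XX control and in XY KO than in XY control gonads. The sums were 96.4 to 109 CPM in XY controls and 23.3 to 38.1 CPM elsewhere, and Sox10 is also on the Sertoli list. Of 6 endothelial markers Cdh5 was lower in XX controls and Pecam1 and Kdr were higher in XY KO gonads. Mesonephric markers had sums of 105 to 135 CPM in XY controls and 299 to 425 CPM in the other E12.5 libraries, most of it Emx2, and pre-granulosa markers of 78.3 to 105 CPM in XY controls and 546 to 978 CPM in the others. The other mesonephric markers differed in pattern. Cdh16 was at 50.3 ± 31.8 CPM in XX KO and 26 ± 22.4 CPM in XY KO gonads, against 0.811 ± 0.445 and 0.188 ± 0.223 CPM in XX and XY controls (SD, n = 3). Wnt9b was at 3.25 ± 3.53, 3.72 ± 4.18, 0.0508 ± 0.0505 and 0.333 ± 0.14 CPM in the same order, and Lhx1 was highest in XY controls, at 20.5 ± 0.765 CPM against means of 3.05 to 6.11 CPM (SD, n = 3). Both Cdh16 and Wnt9b were called higher in each KO genotype than in its control. Wnt9b reached 1 CPM only in KO libraries, so its calls support nothing. Cdh16 was under 1 CPM by its mean in both controls, and its calls are not read as support either. Erythroid markers were not called in any comparison of the E12.5 gonads. The part of any of these in the Hedgehog differences was not tested.

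Markers of interstitial progenitors, the cells that receive the Dhh signal in the testis, moved with Gli1 and Gli2 in XX KO gonads. Of 6 such markers 3 (Pdgfra, Tcf21 and Wnt5a) were higher in XX KO than in XX control gonads at E12.5, and the sums of the 6 were 1000 to 1440 CPM in XX KO, 675 to 850 CPM in XX controls, 1480 to 1580 CPM in XY KO and 1600 to 1950 CPM in XY controls. Of 8 mesonephric markers Pax8, Wnt9b and Cdh16 were also higher in XX KO than in their controls, with log2 fold changes of 0.85, 5.8 and 5.99 (FDR 0.0309, 0.0421 and 0.00913). The calls of Wnt9b and Cdh16 have the limit given above. At E11.5 the sums were 1900 to 2010 CPM in XX KO and 1560 to 1660 CPM in XX control tissue, with Pdgfra and Tcf21 called, beside the higher Gli2 and Hhip, and 1740 to 1870 CPM in XY KO and 1460 to 1630 CPM in XY control tissue, with Pdgfra, Tcf21 and Wnt5a called, beside the higher Hhip and Shh. At E11.5 mesonephric markers had sums of 351 to 399 CPM in XY KO and 362 to 507 CPM in XY control tissue, and Sertoli markers of 189 to 225 and 334 to 515 CPM, with 7 of 10 Sertoli markers lower in XY KO tissue. Of these 7, Ptgds reached 1 CPM only in XY controls, with at most 0.723 CPM elsewhere, so its call supports nothing. The part of all these markers in the Hedgehog differences was not tested.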

How the data were processed

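Bulk RNA-seq of mouse gonads was analysed for 4 genotypes at E11.5 and E12.5, with 3 libraries each. The authors mapped read pairs to mm10 (GRCm38) and counted them per gene with featureCounts of subread, and the deposited values are raw whole-number counts, 1 table per stage. The annotation, the strand setting and how reads matching more than 1 place were handled are not given in the sources used here, so overlapping genes are uncertain. The replicate libraries differed by more than sampling noise (chi-square per degree of freedom at least 7.24), and nothing but the pooling of gonads says that they came from separate litters, so p-values measure the spread between these libraries. In the tables of Foxl2 mutants, 12 columns were not used, since their names match no sample label.

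For each stage, edgeR 4.0.16 (R 4.3.3) fitted 1 robust quasi-likelihood model with a mean per genotype to the 12 libraries, with TMM scaling and genes of at least 1 CPM in at least 2 libraries. Genes with a Benjamini-Hochberg FDR under 0.05 over all genes tested were called, and SE is |log2 fold change| over the root of the F statistic. CPM use TMM library sizes, and RPKM divide them by merged exon length (GENCODE, GRCm38). Relations used Pearson's and Spearman's coefficients with exact permutation tests, or 100000 permutations for 10 or more libraries. Seed matches are the reverse complement of bases 2 to 8. Alternatives were DESeq2 1.42.0 (size factors and Wald test), library size alone, 2 other filters, a replicate block, a fit to 2 genotypes, leaving out each library, and for relations a pseudocount of 2 CPM. The fit was tested on simulated data. The genes described and all lists were chosen with earlier results of these data known. Named beside the 9 genes are up to 3 called genes of lowest FDR per pathway list and comparison, the called markers, and the 5 nearest profiles. Single-cell data were not used here. 1 marker gene of the interstitial list is not reported here, and that list was summarised without it.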

Additional observations from a re-analysis of the deposited data

Results flagged for a closer look

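The effect of the deletion differed between XY and XX gonads at E12.5 for 6 of the 8 tested Hedgehog genes, beside 12.9% of all genes (1857 of 14348), by the test of the interaction of sex and deletion (edgeR quasi-likelihood test, Benjamini-Hochberg FDR, 3 libraries per genotype). The value is the log2 fold change of XY KO against XY control minus that of XX KO against XX control. A negative value means that the log2 fold change with the deletion was lower in XY than in XX gonads, whatever the levels. It was -5.47 (SE 0.40, FDR 9.82e-07) for Dhh and -5.09 (SE 0.48, FDR 7.83e-06) for Hhip. It was -4.11 (SE 0.51, FDR 7.69e-05) for Gli1, which fell in XY KO and rose in XX KO gonads. It was -1.24 (SE 0.24, FDR 0.00286) for Gli2, which moved as Gli1 did in each sex, and -2.17 (SE 0.45, FDR 0.00459) for Ptch1, which fell in XY KO gonads and was not called in XX KO.
For Shh it was -4.32 (SE 1.13, FDR 0.0198), from few reads, and since Shh reached the level needed for testing only in the XY controls this call supports nothing. It was -3.73 (FDR 0.0502) and -6.08 without XX control replicate 1 and 2 respectively, -3.0 (FDR 0.078) without XX KO replicate 2 and -5.36 without XY KO replicate 3. For Hhip it was -4.45 without XX KO replicate 2. No interaction was called at E11.5, where that of Dhh was -3.79 (SE 0.84, FDR 0.171) and was -4.21 with an FDR of 0.00714 without XY control replicate 1, the XY control with the least Dhh. Groups of 3 libraries are too small for a test of single outlying libraries.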

How the results depend on the processing

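The number of Hedgehog genes called was within 1.5 times of that reported under DESeq2 size factors, no filter, filterByExpr and the other alternatives, with these exceptions. In XX KO against XX control tissue at E11.5 it was 1 with library size alone. In XX against XY controls at E11.5 it was 2 in the DESeq2 Wald test. At E12.5, XX KO against XX control gave 1 with the replicate block and 1 in a fit to those 6 libraries, and XX KO against XY KO gave 0 in such a fit. Leaving out each library in turn, the counts at E11.5 ranged from 0 to 3 for XX against XY controls, 0 to 3 for XX KO against XX control and 0 to 1 for the interaction, and at E12.5 from 0 to 2 for XX KO against XX control and 1 to 3 for XX KO against XY KO. Over all genes the calls rose from 126 to 2495 for the E11.5 controls without XY control replicate 2, and at E12.5 ran from 35 to 1670 for XX KO against XX control and from 13 to 1828 for XX KO against XY KO. Equal counts need not hold the same genes.
Same-numbered libraries did not deviate together (correlations from -0.44 to 0.39), so the replicate numbers do not pair the samples. With the replicate block the counts of called Hedgehog genes were 1 for the controls, 3 for XY KO and 2 for XX KO at E11.5 and 6, 6 and 1 at E12.5, and the call lost was Gli2 in XX KO (FDR 0.053).
Among the relations, Hhip with Shh at E11.5 was 0.79 with a pseudocount of 2 CPM and 0.38 within genotypes, where it no longer passed. Signs turned in relations that did not pass the correction. Ptch1 with Dhh at E11.5 was -0.36 with a pseudocount of 2 CPM, which also put XY control replicates 2 and 3 in a cluster of their own, and -0.37 without the 2 farthest libraries. Within genotypes Hhip with Dhh was 0.65 at the first stage and -0.06 at the second, and Gli1 with Shh was 0.18 at E11.5. Without the 2 farthest libraries the values were -0.13 for Ptch1 and -0.55 for Gli1 with Shh at E11.5, 0.23 for Ptch1, -0.06 for Gli1 and 0.45 for Hhip with Dhh at E12.5, and 0.42 for Ptch1, 0.48 for Gli1 and -0.67 for Hhip with Shh at E12.5. The cause of these changes was not tested. Depth limits Shh at E12.5 and Ihh at both stages, with 0 to 54 and 0 to 25 reads per library.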
